A study of Mus musculus with 31 samples.

Results

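The genes described here encode the subunits of the proteasome, its activators and its assembly chaperones. They were found as the array probes whose single gene name begins with Psma, Psmb, Psmc, Psmd, Psme, Psmf or Psmg followed by a digit. The rule found 51 of 23040 probes and 50 of the 15096 genes named on the array, and only Psmb8 had 2 probes, which were averaged. All 51 probes matched the RefSeq gene table by gene number under the same symbol. The genes fell into 15 core genes, 4 immunoproteasome genes, 20 genes of the regulatory particle and its chaperones, 5 activators or inhibitors, 4 chaperones of core assembly, and 2 genes that share only the name. Psmc3ip, a partner of meiotic recombinases, and Psme3ip1, a nuclear binding protein of the activator Psme3, are not subunits.

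RNA was measured in 31 BXD recombinant inbred strains, which descend from a cross of the C57BL/6J and DBA/2J mouse strains and are each fixed for one parent's allele at every locus. The strains are given as BXD33-42 (7 strains) and BXD1-32 (24 strains), a division that comes from background knowledge of a later and an earlier breeding and not from the labels. For each strain, RNA of 3 male mice aged 8 weeks was pooled, labelled with a red Alexa Fluor dye and hybridised on 1 two-colour spotted array against C57BL/6J RNA, from males of the same age, in a green Alexa Fluor dye. The dyes were not swapped, so a dye effect of a probe cannot be told apart from a difference between the strains and C57BL/6J. The same holds for an effect of the C57BL/6J reference RNA, which all arrays share. Sample titles name kidney and the source fields name whole brain, and since a ratio to a reference of the same tissue carries no level, the tissue could not be checked against its markers.

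The proteasome degrades proteins tagged with ubiquitin. Its barrel-shaped core stacks rings of alpha subunits, which gate the entrance, around rings of beta subunits, of which Psmb5, Psmb6 and Psmb7 carry the active sites. The regulatory particle caps the barrel, where its ATPases (Psmc genes) unfold the substrate and its other subunits (Psmd genes) bind and remove ubiquitin. Interferon gamma induces Psmb8, Psmb9 and Psmb10, which replace Psmb5, Psmb6 and Psmb7 in the immunoproteasome and change the peptides made for class I presentation. Both kidney and brain contain mainly the standard proteasome. The transcription factors Nfe2l1 and Nfe2l2 raise transcription of many subunit genes when proteasome activity falls or cells meet oxidative stress.

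Upstream sequences of the RefSeq gene starts (assembly GRCm38.p6) were searched on both strands for short motifs of factors known to act on these genes. Each window ran from 250 bases before to 50 bases after a start, and 42 of the 50 genes had at least 1 window, 45 windows in all. Those of 5 genes are shown. Psmb5 and Psmb6 are the active-site genes with a match to the Nfe2l1 core motif, and Psmb9 is the immunoproteasome gene of widest spread. Psmd4 and Psmc1 are a regulatory pair with a correlation of 0.73 over all strains, 0.81 within BXD1-32 but 0.01 within BXD33-42. Capitals mark matches on either strand to TGACNNNGC (the core of sites bound by Nfe2l1 and Nfe2l2), CCAAT, the interferon-stimulated response element (GAAA, any 2 bases, GAAA) and TTCNNNGAA (the gamma-activated site).
Psmb5, chr14:54617946-54618245, minus strand: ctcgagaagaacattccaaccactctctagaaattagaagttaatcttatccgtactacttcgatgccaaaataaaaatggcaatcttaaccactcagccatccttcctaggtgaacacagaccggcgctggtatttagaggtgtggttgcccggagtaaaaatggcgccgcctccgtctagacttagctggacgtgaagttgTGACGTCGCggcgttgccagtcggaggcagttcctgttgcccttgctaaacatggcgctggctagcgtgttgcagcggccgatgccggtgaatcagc
Psmb6, chr11:70525107-70525406, plus strand: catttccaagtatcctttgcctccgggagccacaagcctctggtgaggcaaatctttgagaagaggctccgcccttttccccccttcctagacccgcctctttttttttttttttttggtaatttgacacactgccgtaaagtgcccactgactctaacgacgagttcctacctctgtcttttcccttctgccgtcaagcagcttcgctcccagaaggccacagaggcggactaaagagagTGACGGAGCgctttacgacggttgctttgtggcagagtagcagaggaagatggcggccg
Psmd4, chr3:95042565-95042864, minus strand: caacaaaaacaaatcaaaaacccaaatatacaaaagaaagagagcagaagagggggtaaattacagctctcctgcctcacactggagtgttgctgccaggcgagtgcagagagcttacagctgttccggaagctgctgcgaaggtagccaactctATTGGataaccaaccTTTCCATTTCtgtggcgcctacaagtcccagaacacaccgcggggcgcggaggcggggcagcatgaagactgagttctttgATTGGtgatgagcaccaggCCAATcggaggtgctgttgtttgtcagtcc
Psmc1, chr12:100109952-100110251, plus strand: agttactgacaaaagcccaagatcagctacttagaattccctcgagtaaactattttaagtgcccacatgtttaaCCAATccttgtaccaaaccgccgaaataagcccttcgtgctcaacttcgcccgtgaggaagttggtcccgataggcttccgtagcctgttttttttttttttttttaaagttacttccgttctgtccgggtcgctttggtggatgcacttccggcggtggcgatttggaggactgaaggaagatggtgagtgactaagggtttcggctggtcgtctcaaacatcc
Psmb9, chr17:34187281-34187580, minus strand: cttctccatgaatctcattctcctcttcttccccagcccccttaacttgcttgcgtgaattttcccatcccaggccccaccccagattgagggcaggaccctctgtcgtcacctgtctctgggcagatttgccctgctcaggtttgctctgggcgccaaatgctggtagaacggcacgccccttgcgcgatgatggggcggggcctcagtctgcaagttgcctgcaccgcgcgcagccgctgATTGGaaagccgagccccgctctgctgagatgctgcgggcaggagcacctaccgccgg

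The TGACNNNGC motif was present in 13.3% of the proteasome windows (those of Psmb5, Psmb6, Psmc6, Psmd9, Psmd12 and Psme4) and in 12.4% of all 32851 windows. CCAAT was present in 35.6% of the proteasome windows and 37.4% of all windows. The interferon-stimulated response element was present in 11.1% of the proteasome windows (Psmb3, Psmd4, Psmd9, Psme1 and Psmg4) and 3.44% of all windows, and TTCNNNGAA in 6.67% (Psmb8, Psmd2 and Psmg1) and 8.30%. The GC box GGGCGG, which is not marked above, was present in 51.1% of the proteasome windows and 35.7% of all windows. Neither of the shown windows of Psmd4 and Psmc1 held the Nfe2l1 core, and no match to either interferon motif was found in the window of Psmb9. A match is only an occurrence of letters in the window.

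Over the 31 strains, 24 of the 50 proteasome genes had a mean log2 ratio above C57BL/6J that passed an adjusted p of 0.05, 8 were below and 18 did not pass (limma against 0, Benjamini-Hochberg over all features). The ratio is read as strain over C57BL/6J, which is likely but not stated in the labels, so the direction of every signed value rests on that reading. Among all 21262 features tested, 58.0% passed, 27.5% as higher and 30.5% as lower. The median of the mean log2 ratios was 0.14 for the proteasome genes and -0.02 for all features. At an unadjusted p under 0.05 there were 33 proteasome genes, against 62.0% of all features. In RNA of whole tissue, fewer cells of a type and less RNA per cell cannot be told apart.

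**Figure D1:**
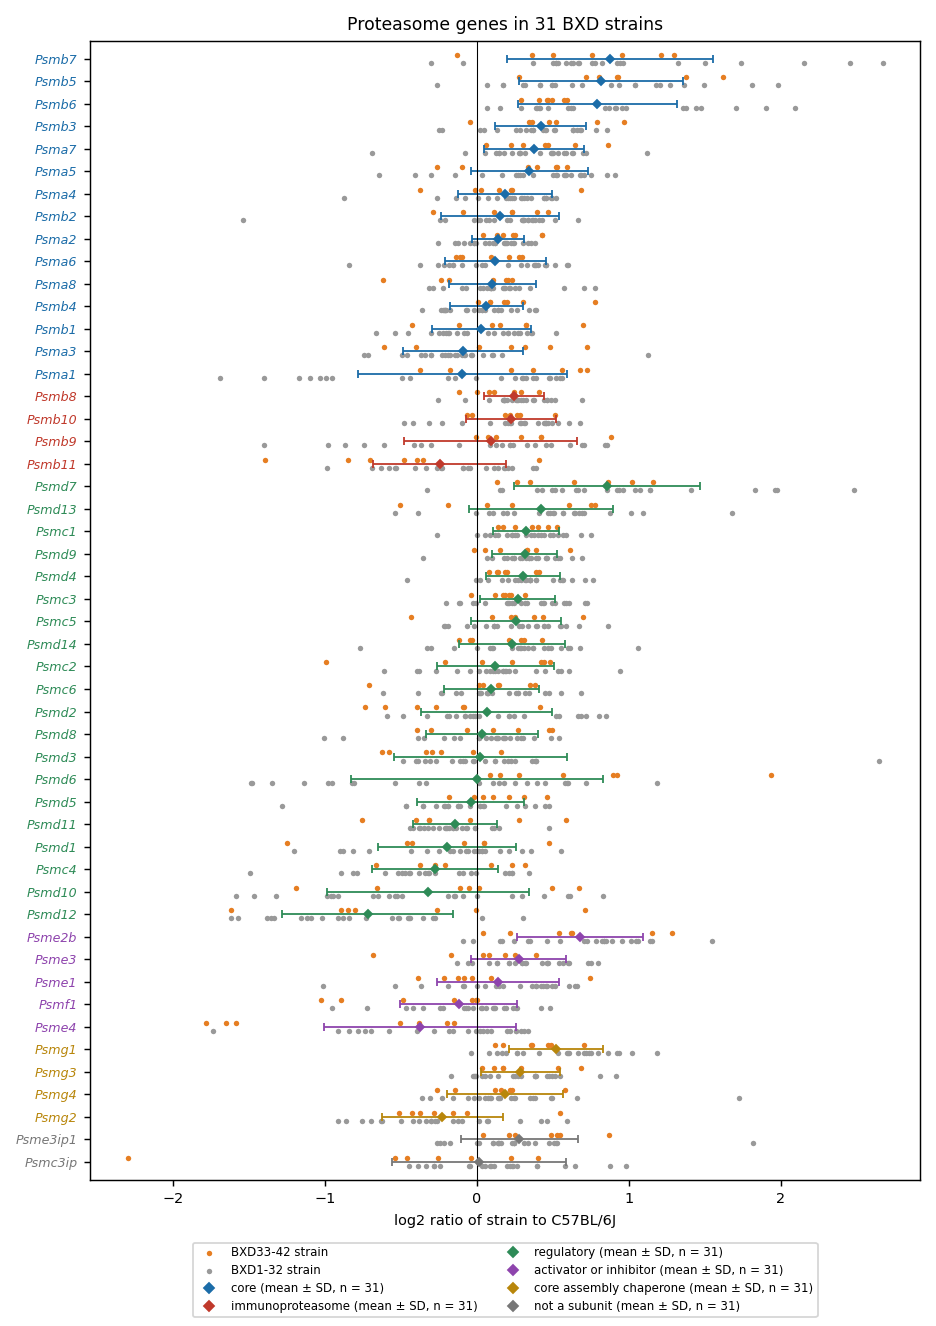
Log2 ratio to C57BL/6J (x axis) of the 50 proteasome genes (rows, grouped by class and ordered by mean). Orange points are the 7 BXD33-42 strains, grey points the 24 BXD1-32 strains, and diamonds with bars the mean ± SD over 31 strains. Psmb7, Psmb5, Psmb6 and Psmd7 lie furthest to the right, with means of 0.88, 0.82, 0.79 and 0.86, and Psmd12 furthest to the left at -0.72.

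The active-site genes of the standard core were the highest of the core genes. Psmb7, which encodes the trypsin-like subunit, had values of -0.13, 0.76 and 1.30 (lowest, median and highest) in BXD33-42 and -0.30, 0.71 and 2.67 in BXD1-32. It was above 0 in 28 of 31 strains, with 3 strains (BXD15, BXD38 and BXD9) slightly below and its highest values in BXD20, BXD2 and BXD12. Its mean log2 ratio was 0.88 ± 0.68 (SD, n = 31, adjusted p = 1.21e-07 by limma).

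Psmb5, the chymotrypsin-like subunit, had values of 0.28, 0.92 and 1.62 in BXD33-42 and -0.26, 0.66 and 1.98 in BXD1-32. It was above 0 in every strain except BXD15, and its highest values were in BXD29, BXD18 and BXD34. Its mean was 0.82 ± 0.54 (adjusted p = 8.10e-09). Psmb6, the caspase-like subunit, had values of 0.29, 0.46 and 0.59 in BXD33-42, against 0.07, 0.86 and 2.09 in BXD1-32. It was above 0 in all 31 strains, and the BXD33-42 strains lay within a narrow band inside the range of BXD1-32. Its mean was 0.79 ± 0.52 (adjusted p = 7.96e-09).

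All 3 active-site genes rose, but Psmb5 was highest in other strains than Psmb6 and Psmb7. BXD2 and BXD12 were among the 3 highest strains for both Psmb6 and Psmb7. The Pearson correlation over strains was -0.01 between Psmb5 and Psmb6, 0.06 between Psmb5 and Psmb7, and 0.49 between Psmb6 and Psmb7. BXD29 had the highest Psmb5 value (1.98) but only 0.29 for Psmb6.

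Of the 7 beta-ring genes, 4 rose and 3 did not pass, with a median mean of 0.42. The fourth was Psmb3, a structural subunit without an active site, at 0.42 ± 0.30, above 0 in 28 strains. Psmb2 (0.15), Psmb4 (0.06) and Psmb1 (0.03), also without active sites, did not pass. Psmb1 had values of -0.43, 0.15 and 0.70 in BXD33-42 and -0.67, 0.00 and 0.52 in BXD1-32, so the strains lay about evenly on both sides of 0. Psmb2 was at -1.54 in BXD5, with its next lowest value at -0.29, and it passed when BXD38 was left out (0.17, adjusted p = 0.0381).

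Of the 8 alpha-ring genes, 4 rose and 4 did not pass, with a median mean of 0.13. Those that rose were Psma7 (0.38, above 0 in 29 strains), Psma5 (0.34), Psma4 (0.18) and Psma2 (0.14), all subunits of the gating ring. Psma6 (0.12) did not pass over all strains but did without BXD15 (0.15, adjusted p = 0.0143). Psma8, the testis form of an alpha subunit, was at 0.10 ± 0.29.

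Psma3 and Psma1 had the lowest means of the core. Psma3 had values of -0.61, 0.22 and 0.72 in BXD33-42 and -0.75, -0.16 and 1.13 in BXD1-32, with a mean of -0.09 ± 0.40 (adjusted p = 0.256). Psma1 had values of -0.38, 0.37 and 0.72 in BXD33-42 and -1.69, 0.08 and 0.56 in BXD1-32. In 7 BXD1-32 strains (BXD22, BXD29, BXD32, BXD11, BXD28, BXD21 and BXD24) Psma1 was at -0.96 or lower, with no strain between those and BXD9 at -0.49. Its mean was -0.10 ± 0.69 (adjusted p = 0.501).

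The place of a probe on the array moved with these values. In the repeat of 480 places in which the spots were ordered, the mean of a probe's place accounted for 36.7% of the variance of probe means. In all, 22 proteasome probes, of 21 genes, were at places 67 to 72, where 288 probes of the array lie. They included every core gene except Psma8, and also Psmb8, Psmb9, Psmb10, Psmc3, Psmd4, Psmd13 and Psmd14. Of these 21 genes, 14 rose and none fell, with a median mean of 0.23. Of the 29 genes at other places, 10 rose and 8 fell, with a median mean of 0.06. Among all features 27.5% passed as higher and 30.5% as lower, and these shares were not computed for the other probes at places 67 to 72. Place and class move together in this split.

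**Figure D2:**
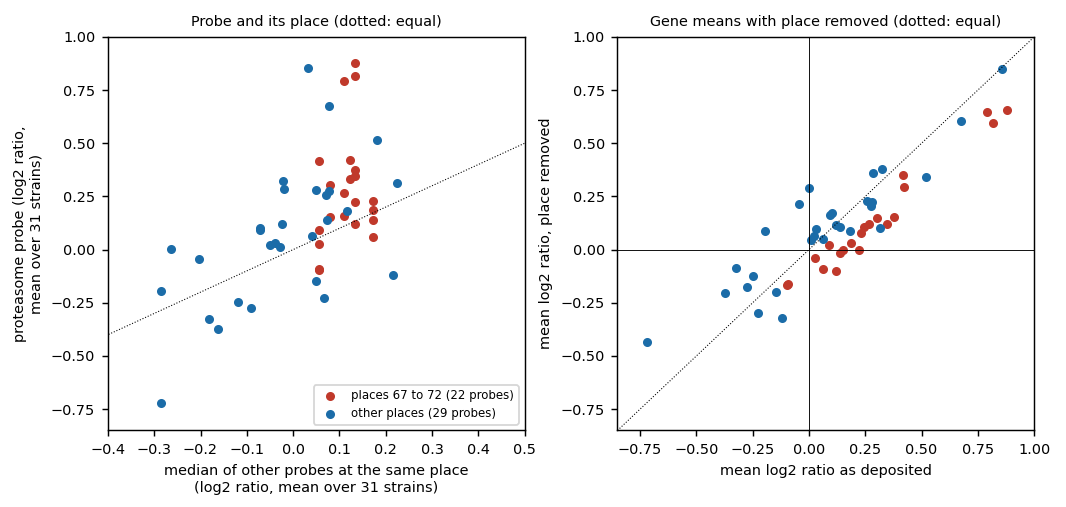
Left, the mean log2 ratio over 31 strains of each of the 51 proteasome probes (y axis) against the median of the other probes at its place (x axis). Right, each gene's mean with the place removed (y axis) against its mean as deposited (x axis); red marks places 67 to 72 and blue all other places. In the left panel 37 of 51 probes lie above the line of equality.

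Of the 51 probes, 37 had a mean above the median of the other probes at their place, 16 of them among the 22 at places 67 to 72, and the median excess was 0.09. When place means taken without the proteasome probes were subtracted on each array, 22 of the 50 genes passed as higher and 5 as lower, against 28.8% and 25.7% of all features. Among them were 18 of the 24 genes that rose and 4 of the 8 that fell with the deposited values. The core then had 6 genes higher and none lower, with a median of 0.03. Psmb7 (0.66), Psmb6 (0.65), Psmb5 (0.59), Psmb3 (0.35), Psma7 (0.15) and Psma8 (0.17) passed, while Psma2, Psma4 and Psma5 no longer did, at -0.01, 0.03 and 0.12. With the proteasome probes kept in the place means, 20 genes passed as higher and 6 as lower (28.8% and 25.8% of all features). The core then had 6 genes higher and 1 lower. The part of place in the deposited means was otherwise not tested.

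Of the 4 immunoproteasome genes, 2 rose, 1 fell and 1 did not pass, with a median mean of 0.16. Psmb8, the inducible counterpart of Psmb5, had values of -0.12, 0.11 and 0.41 in BXD33-42 and -0.26, 0.27 and 0.69 in BXD1-32. With a narrow spread and 27 strains above 0, its mean was 0.24 ± 0.20 (adjusted p = 4.20e-06). Its 2 probes had means of 0.16 and 0.33 and a correlation of 0.37 over strains.

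Psmb10, the counterpart of Psmb7, had values of -0.07, 0.22 and 0.51 in BXD33-42 and -0.48, 0.30 and 0.68 in BXD1-32. Its values were above 0 in 24 strains and lowest in BXD29, with a mean of 0.22 ± 0.29 (adjusted p = 0.00074). With the place removed, Psmb8 stayed above 0 at 0.11 (adjusted p = 0.0329) and Psmb10 was at -5.8e-05 (adjusted p = 0.999). When the proteasome probes were kept in the place means, none of the 4 immunoproteasome genes passed, Psmb8 included.

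Psmb9, the counterpart of Psmb6, had values of -0.00, 0.29 and 0.88 in BXD33-42 and -1.40, 0.19 and 0.85 in BXD1-32. The negative values reached -0.61 or lower in 5 strains, BXD11, BXD18, BXD28, BXD21 and BXD9, all of BXD1-32. Its mean was 0.09 ± 0.57 (adjusted p = 0.443). Psmb11, the subunit of cortical thymic epithelium, had values of -1.40, -0.48 and 0.40 in BXD33-42 and -0.99, -0.09 and 0.39 in BXD1-32. It fell, with a mean of -0.25 ± 0.44 (adjusted p = 0.0063), but not with the place removed (-0.13, adjusted p = 0.172).

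The inducible subunits did not share one pattern over strains. Psmb8 and Psmb9, neighbours in the major histocompatibility complex on chromosome 17, had a correlation of -0.28. Psmb9 with Psmb10 gave 0.05 and Psmb8 with Psmb10 gave 0.16. Against the standard subunit that each replaces, the correlations were -0.22 for Psmb8 with Psmb5, -0.01 for Psmb9 with Psmb6 and 0.53 for Psmb10 with Psmb7. The last was 0.31 with the place removed.

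Of the 20 genes of the regulatory particle and its chaperones, 8 rose, 5 fell and 7 did not pass, with a median mean of 0.08. The spread was wide: Psmd7 was as high as the active-site genes, and Psmd12 was the lowest of all proteasome genes. Both encode subunits of the lid, the part that removes ubiquitin chains.

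Among the 6 ATPases, which form the unfolding ring, Psmc1, Psmc3 and Psmc5 rose and Psmc4 fell. Psmc1 had values of 0.14, 0.36 and 0.53 in BXD33-42 and -0.26, 0.34 and 0.75 in BXD1-32. It was above 0 in 29 strains, at a mean of 0.32 ± 0.22 (adjusted p = 1.05e-07), and its SD was smaller than that of all but 5.62% of named genes. Psmc3 averaged 0.27 and Psmc5 0.26. Psmc2 (0.12) and Psmc6 (0.09) did not pass, although Psmc6 did with the place removed (0.16, adjusted p = 0.0107).

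Psmc4 had values of -0.67, -0.21 and 0.32 in BXD33-42 and -1.50, -0.33 and 0.34 in BXD1-32. It was below 0 in 23 strains and lowest in BXD14, with a mean of -0.28 ± 0.42 (adjusted p = 0.0017).

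Of the 11 other subunits of the particle, 4 rose, 3 fell and 4 did not pass. Psmd7, the lid partner of the deubiquitinase, had values of 0.13, 0.64 and 1.16 in BXD33-42 and -0.33, 0.89 and 2.48 in BXD1-32. It was below 0 only in BXD21 and highest in BXD12, BXD2 and BXD20, with a mean of 0.86 ± 0.61 (adjusted p = 2.89e-08). Its probe lies outside places 67 to 72, and with the place removed its mean was 0.85.

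Psmd13, a lid subunit, had values of -0.51, 0.23 and 0.78 in BXD33-42 and -0.54, 0.50 and 1.68 in BXD1-32, at a mean of 0.42 ± 0.47 (adjusted p = 5.62e-05). Psmd4, a receptor for ubiquitin, averaged 0.30 and was above 0 in 29 strains. Psmd14, the deubiquitinase of the lid, averaged 0.23 (adjusted p = 0.00224) and did not pass with the place removed (0.08, adjusted p = 0.273).

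Psmd12 had values of -1.62, -0.80 and 0.71 in BXD33-42 and -1.62, -0.79 and 0.30 in BXD1-32. It was below 0 in 28 of 31 strains, and the exceptions were BXD38, BXD13 and BXD15. Its mean was -0.72 ± 0.56 (adjusted p = 1.73e-07), and with the place removed -0.43 (adjusted p = 0.000522). The median of the other probes at its place was -0.28.

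Psmd11, a lid subunit, fell by 0.15 on the log2 scale and was above 0 in only 6 strains. Psmd1, a scaffold of the base, averaged -0.20 (adjusted p = 0.0343), and this call was lost without BXD15 and BXD38 (adjusted p = 0.0594) and turned to 0.09 with the place removed (adjusted p = 0.356). Psmd2 (0.06), the other base scaffold, and the lid subunits Psmd3 (0.02), Psmd6 (0.00) and Psmd8 (0.03) did not pass. With the place removed, Psmd6 was above 0 at 0.29 (adjusted p = 0.00435). Psmd3 reached 2.64 in BXD20, while its median was -0.03.

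The chaperones of base assembly went in different directions. Psmd9 rose at 0.31 ± 0.21 and was above 0 in 29 strains. Psmd10, also known as the oncoprotein gankyrin, had values of -1.19, -0.06 and 0.67 in BXD33-42 and -1.59, -0.51 and 0.83 in BXD1-32. It fell with a mean of -0.33 ± 0.66 (adjusted p = 0.0147), but not with the place removed (-0.09, adjusted p = 0.367). Psmd5 was at -0.04 and did not pass, whereas with the place removed it was above 0 at 0.21 (adjusted p = 0.00216).

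Of the 5 activators and inhibitors, 2 rose, 1 fell and 2 did not pass, with a median mean of 0.14. The PA28 genes encode rings that open the core without ubiquitin. Psme2b, a copy of Psme2 that a probe may not distinguish from it, had values of 0.04, 0.62 and 1.28 in BXD33-42 and -0.10, 0.80 and 1.55 in BXD1-32. It was above 0 in 29 strains, with a mean of 0.68 ± 0.41 (adjusted p = 2.60e-09).

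Psme1, the interferon-inducible partner of Psme2, had values of -0.39, -0.09 and 0.75 in BXD33-42 and -1.02, 0.32 and 0.66 in BXD1-32. Its mean was 0.14 ± 0.40 (adjusted p = 0.0939), and its correlation with Psme2b was 0.21. Psme3, the nuclear PA28 subunit, had values of -0.69, 0.08 and 0.39 in BXD33-42, against -0.13, 0.32 and 0.80 in BXD1-32. Its mean over all strains was 0.27 ± 0.31 (adjusted p = 0.000112).

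Psme4, the large nuclear activator PA200, had values of -1.79, -0.51 and -0.15 in BXD33-42, against -1.74, -0.03 and 0.34 in BXD1-32. All 7 BXD33-42 strains were below 0, as were 13 of the BXD1-32 strains, and the groups overlapped. Its mean was -0.37 ± 0.63 (adjusted p = 0.00381), but the call was lost with the place removed (-0.20, adjusted p = 0.123) and in BXD1-32 alone (-0.22, adjusted p = 0.0661).

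Psmf1, the inhibitor PI31, had values of -1.02, -0.15 and -0.00 in BXD33-42, against -0.96, 0.03 and 0.48 in BXD1-32. Its mean was -0.12 ± 0.39 (adjusted p = 0.127), and with the place removed it was lower at -0.32 (adjusted p = 0.000323).

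Among the 4 chaperones that build the alpha ring, Psmg1, Psmg3 and Psmg4 rose and Psmg2 fell. Psmg1 had values of 0.12, 0.36 and 0.71 in BXD33-42 and -0.04, 0.60 and 1.18 in BXD1-32, below 0 only in BXD21, at a mean of 0.52 ± 0.31 (adjusted p = 3.30e-09). Psmg2, with which Psmg1 forms a pair, had values of -0.52, -0.29 and 0.54 in BXD33-42 and -0.91, -0.29 and 0.59 in BXD1-32. It was below 0 in 23 strains, at -0.23 ± 0.40 (adjusted p = 0.00617).

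The members of the other chaperone pair were both higher. Psmg3 had values of 0.03, 0.17 and 0.68 in BXD33-42 and -0.17, 0.28 and 0.91 in BXD1-32, at a mean of 0.29 ± 0.26 (adjusted p = 8.60e-06). Psmg4 averaged 0.18 (adjusted p = 0.0213), which was not held with the place removed (0.09, adjusted p = 0.274). Of the genes that share only the name, Psme3ip1 rose at 0.28 ± 0.39 (adjusted p = 0.000813), and Psmc3ip was at 0.01 ± 0.57. Without this pair of genes, 23 of 48 rose and 8 fell.

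Within single strains the core median was usually above that of the regulatory genes. The median log2 ratio of the 15 core genes was above 0 in 30 of 31 strains, with values of 0.15, 0.28 and 0.48 (lowest, median and highest) in BXD33-42 and -0.26, 0.27 and 0.51 in BXD1-32. The regulatory median was also above 0 in 30 strains, with values of 0.10, 0.13 and 0.17 in BXD33-42 and -0.29, 0.15 and 0.42 in BXD1-32. The core median exceeded the regulatory median in 25 strains, by 0.37 at most, in BXD34. As 14 of the 15 core genes were at places 67 to 72, class and place move together here. With the place removed, the median of the gene means was 0.03 for the core and 0.11 for the regulatory genes, the opposite order.

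The immunoproteasome median was above 0 in 24 strains, from -0.37 in BXD29 to 0.43 in BXD1. It exceeded the core median in 10 strains, and the gap was widest in BXD29, where Psmb5 was at its highest and Psmb8 and Psmb10 at their lowest. BXD9 had the opposite order, with the immunoproteasome median 0.19 above that of the core.

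**Figure D3:**
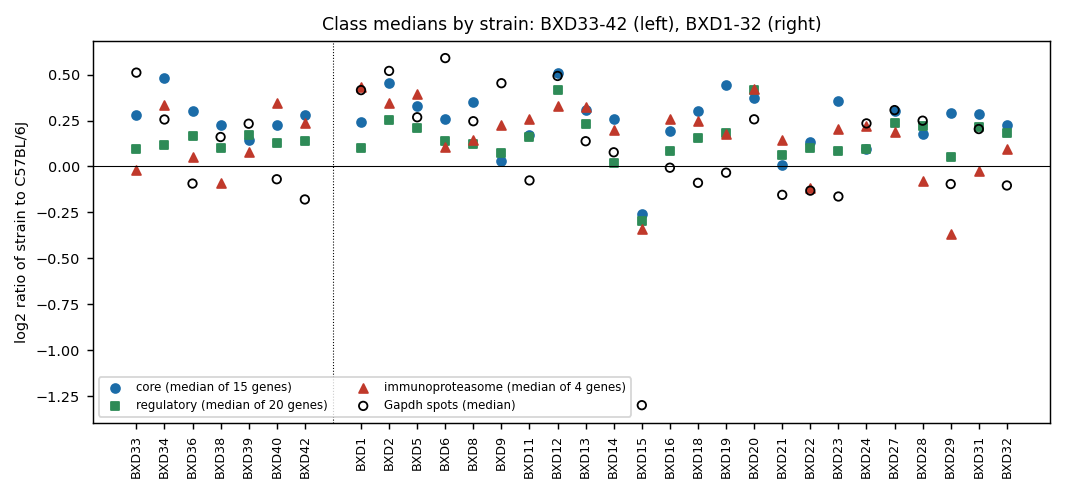
Median log2 ratio to C57BL/6J (y axis) of the core, regulatory and immunoproteasome genes and of the Gapdh spots in each strain (x axis), BXD33-42 left of the dotted line and BXD1-32 right of it. In BXD15 all 3 classes are below 0, between -0.34 and -0.26, and Gapdh is at -1.30.

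BXD15 stood apart. It was the only strain with a negative core or regulatory median. In it 16 of 50 genes were above 0, against a median of 35 over strains and 51.7% of all features on its array. Of the proteasome genes, 15 had their lowest value in it, and the share of all features lowest in BXD15 was not computed. The repeated spots of Gapdh, a glycolytic gene, had a median of -1.30 on this array, whereas the next lowest was -0.18, in BXD42. The arrays had been made to have the same distribution, so the median of all features lay between 0.0091 and 0.017 on every array. BXD38 held the lowest value of 6 genes and the highest of 4, for which the share over all features was not computed either. Without BXD15, and without both, all 24 higher genes still passed.

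Some genes kept nearly the same ratio in all strains and others ranged widely. Psma2 (SD 0.17) was below all but 0.86% of named genes in spread, and Psmb8, Psmd9 and Psmc1 were also in the 10% of smallest spread. Psmd6, Psma1, Psmb7, Psmd10 and Psme4 were in the 10% of largest spread. Psmd6, a lid subunit, had the widest spread as deposited (SD 0.83), from -1.49 in BXD11 to 1.93 in BXD38. It was above 0 in 20 strains and below in 11. The standard error of its mean was 0.141 as deposited and 0.084 with the place removed. For Psme4 these were 0.108 and 0.111, for Psmb7 0.116 and 0.104, for Psma1 0.118 and 0.099. For Psmd10 they were 0.114 and 0.081. With the place removed Psmd6 was thus below Psme4, Psmb7 and Psma1, and Psmb9 (0.071) was below Psmb11 (0.078). In all, 11 genes were above 0 in at least 28 strains, against 8.08% of named genes, and 1, Psmd12, was below 0 in as many, against 5.68%.

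A share of this variation ran along the main axis of the whole data set. The first principal component over all features held 20.5% of the variance, and 14 of the 50 proteasome genes had a correlation with it of more than 0.5 in size, as did 28.4% of all named genes. The highest was 0.87 for Psme4, followed by 0.78 for Psmd2, 0.70 for Psmf1 and 0.68 for Psmc5. Psmd6 was at -0.66. Array and strain effects in this component cannot be told apart.

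As a family the genes varied together only weakly. The median Pearson correlation over 31 strains of the 1225 pairs was 0.066, and 6.45% of pairs exceeded 0.5, whereas among all pairs of named genes the median was 0.00 and 2.88% exceeded 0.5. Within the core the median was 0.12, within the regulatory genes 0.036, within the 4 immunoproteasome genes 0.10 and between core and regulatory genes 0.095. The 5 activators and inhibitors gave 0.42. Without BXD15 and BXD38, 3.84% of the 1225 pairs exceeded 0.5, against 3.12% of all pairs of named genes, and the median of the 1225 pairs was 0.057. Of core pairs, 6.67% exceeded 0.5 over all strains and 2.86% without BXD15 and BXD38. All pairs share the same arrays and the same reference RNA.

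Place on the array moved with this too. Pairs of genes at places 67 to 72 had a median correlation of 0.20, and pairs at other places 0.018. With place means taken without the proteasome probes subtracted, 2.37% of the 1225 pairs exceeded 0.5, against 2.49% of all pairs of named genes. The median was then 0.032 for places 67 to 72, -0.023 for core pairs, and 0.23 for the activators and inhibitors.

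**Figure D4:**
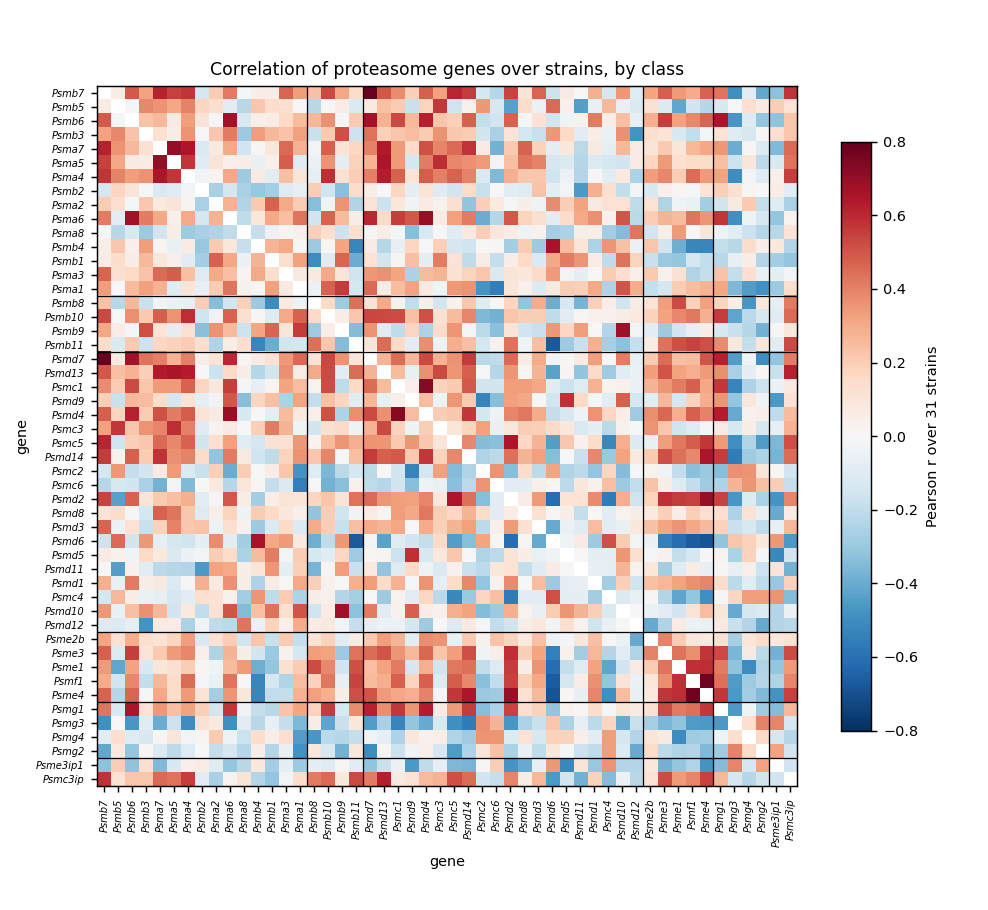
Pearson correlation over 31 strains (colour) for every pair of proteasome genes, ordered by class with black lines between classes. All pairs of the activators and inhibitors (Psme2b to Psme4) are above 0, those of Psme2b with Psme4 and Psmf1 only at 0.08 and 0.09. Psmd6 is below 0 against Psme1, Psme3, Psme4 and Psmf1, down to -0.69 with Psme4, and near 0 (-0.04) against Psme2b.

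The closest pair joined a core and a regulatory gene. Psmb7 and Psmd7 had a correlation of 0.80 (Spearman 0.76), which was 0.94 within BXD33-42 and 0.78 within BXD1-32, and 0.79 with the place removed. Their probes lie at different places, and BXD20, BXD2 and BXD12 were the 3 highest strains for both. Psme4 and Psmf1 followed at 0.78, with 0.88 within BXD33-42, 0.67 within BXD1-32, and 0.77 with the place removed. Both also ran along the first principal component, with correlations of 0.87 and 0.70. With that component removed, pairs of the activators and inhibitors reached at most 0.47, with a median of 0.24.

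The regulatory pair Psmc1 and Psmd4, whose upstream sequences are printed above, had a correlation of 0.73. It was 0.81 within BXD1-32 but 0.01 within BXD33-42, and 0.47 with the place removed. Psma5 and Psma7, both of the alpha ring and with probes at the same place, gave 0.70, and Psmd2 with Psme4 also 0.70. With the place removed these were 0.47 and 0.65.

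Other pairs hardly kept their relation once the place was removed. Psmb9 and Psmd10 were at 0.68 as deposited and at -0.15 with the place removed. Psmd6 was opposed to Psme4 at -0.69, which became -0.12. These correlations describe the same 31 arrays and carry no test.

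**Figure D5:**
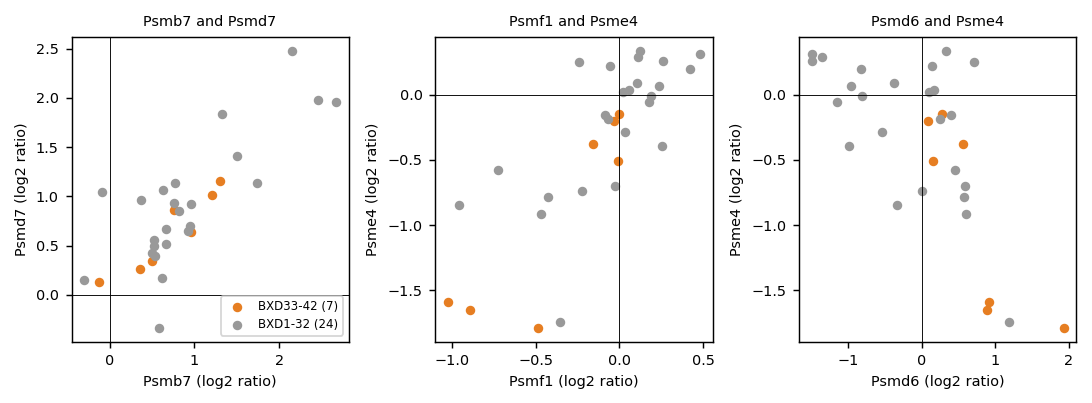
Log2 ratios of 3 pairs of genes in each strain (points, orange for the 7 BXD33-42 and grey for the 24 BXD1-32 strains). Psmb7 and Psmd7 (r = 0.80) and Psmf1 and Psme4 (r = 0.78) go together over strains, and Psmd6 and Psme4 (r = -0.69) run opposite.

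BXD33-42 and BXD1-32 were compared gene by gene. None of the 50 genes passed an adjusted p of 0.05 in limma, and 8 had an unadjusted p under 0.05. Among all features, 2 passed (0.00941%), and 12.6% had an unadjusted p under 0.05. The mean was lower in BXD33-42 for 31 of the 50 genes, and the share of all features with a lower mean was not computed.

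The smallest p-values were those of Psmd6, Psme4 and Psme3. Psmd6 had values of 0.09, 0.56 and 1.93 in BXD33-42, against -1.49, 0.06 and 1.19 in BXD1-32. All 7 BXD33-42 strains were above 0 while BXD1-32 strains lay on both sides, and the difference was 0.89 with a 95% interval of 0.26 to 1.51 (adjusted p = 0.216). Psme4 averaged -0.89 ± 0.74 in BXD33-42 and -0.22 ± 0.52 in BXD1-32 (SD, n = 7 and 24), a difference of -0.67 with an interval of -1.15 to -0.19 (adjusted p = 0.224 by limma). Psme3 averaged 0.01 ± 0.35 in BXD33-42 and 0.35 ± 0.26 in BXD1-32, a difference of -0.34 (adjusted p = 0.241 by limma). No proteasome gene passed with the first principal component as a covariate, where 4 had an unadjusted p under 0.05. Nor did any with the place removed, where 3 did and the smallest adjusted p was 0.409, for Psmd2.

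Genes that work beside the proteasome were split. Beside the counts of this and the following lists stand 27.5% of all features that passed as higher and 30.5% as lower. Of 17 measured partners outside the naming rule, 3 rose and 4 fell, with a median mean of 0.03. Vcp, the ATPase that extracts ubiquitinated proteins, rose at 0.71 ± 0.72, and Ngly1, which removes sugars from proteins and processes Nfe2l1, at 0.54 ± 0.40. Txnl1, a thioredoxin that binds the regulatory particle, fell to -0.37, and Sem1, the smallest lid subunit, to -0.30. Of 16 ubiquitin and conjugation genes, 7 rose and 3 fell. Ube2k (0.49) and Ube4b (0.35) rose, whereas the ubiquitin ligase Ube3a was below 0 in all 31 strains at -0.89 ± 0.45 and Ube4a fell to -0.46.

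The class I presentation list joins genes for handling and presenting peptides with chaperones of more general use. Of 12 measured, 6 rose and none fell, with a median mean of 0.22. The chaperones Hspa5 (0.71 ± 0.62) and Calr (0.59 ± 0.54) were highest, and Pdia3 (0.34), H2-D1 (0.31), B2m (0.27) and Canx (0.18) also rose. Tapbp (0.45), Erap1 (0.12), Tap2 (0.10), H2-Q7 (0.02), H2-K1 (-0.01) and Tap1 (-0.10) did not pass. Of 19 interferon response genes, 5 rose and 6 fell, with a median mean of -0.05. Usp18 (0.61) and Ifit3 (0.44) were highest, and Gbp3 (-0.48) and Irf9 (-0.43) lowest.

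White blood cells carry much immunoproteasome, so their markers are given beside it. Of 15 measured leukocyte markers, 3 rose and 3 fell, with a median mean of -0.02, and their mean per strain ranged from -0.24 to 0.24 in BXD33-42 and from -0.20 to 0.23 in BXD1-32. Lyz2, a myeloid enzyme, and Cd74 rose, at 0.28 and 0.36, while Cd52 (-0.69) and the B cell gene Cd79a (-0.37) fell. Their part in the immunoproteasome values was not tested. Of the tissue markers, 4 of 10 kidney genes rose and none fell, while 4 of 10 brain genes rose and 5 fell. Among all features 27.5% passed as higher and 30.5% as lower. Lrp2 (0.67) and Kap (0.55), both of the proximal tubule, were the highest kidney genes, and Snap25 (0.34) and Aqp4 (0.23) the highest brain genes, with Syn1 (-0.57) and Nefl (-0.25) the lowest. The median range over strains was 2.07 for the kidney genes and 1.14 for the brain genes.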

How the data were processed

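The deposited values are log2 ratios of 2-colour arrays, 1 column per strain, made by the authors with R 2.0.0 and limma, per the submitters' processing notes. The background correction and the base and direction of the logarithm are not given in the sources used here. The values are read as log2 of strain over C57BL/6J. Each of the 31 columns held the same values in another order (SD 0.602, none missing), so the arrays had been quantile normalized. Signal over background is unknown, and precision is limited by how many arrays there are.

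Probes of a gene were averaged, which left 21262 features: 15096 named genes and each probe without a single name. Means over strains were tested against 0, and BXD33-42 against BXD1-32, with limma 3.58.1 in R 4.3.3 (lmFit, eBayes, 2-sided, Benjamini-Hochberg over all features, threshold 0.05). The fits were tested on simulated data. With 1 array of pooled RNA per strain, p-values measure the spread between arrays, and an effect of the array cannot be told apart from one of the strain. A dye or reference effect common to all arrays is outside that spread. Spots repeat in blocks of 480 places. The planned removal of the place subtracted, on each array, the mean of the 48 probes at a place. The values given above with the place removed left the proteasome probes out of these means, unless said otherwise.

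Every proteasome gene is named. Full values were set by rule for the 3 highest and 3 lowest of the core, the regulatory and the remaining genes, all immunoproteasome and PA28 genes, the 3 smallest p between the groups, the 3 widest spreads and the gene with 2 probes, and for the other lists the 2 highest and 2 lowest past the threshold. The genes and lists were chosen with earlier results of these data known. Alternatives were centring, array weights, robust eBayes, treat, a filter on spread, the Psmb8 probe of wider spread, each group alone, the arrays BXD15 and BXD38 left out, and the first principal component. Removing the place with the proteasome probes left out, and leaving out the genes that share only a name, were added after seeing the data.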

Additional observations from a re-analysis of the deposited data

Results flagged for a closer look

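Single arrays far from the rest were sought among the 7 BXD33-42 strains, where a gene was listed when the gap of its highest or lowest strain to the nearest other strain, divided by the whole range, exceeded Dixon's critical value at 95%. This named 5 of 50 genes. For independent normal values the rule would name about 1 in 20, and the share of all features that it names was not computed. Psmb4, a structural beta subunit, was at 0.78 in BXD36, with the next strain at 0.30. Psmc6, an ATPase, was at -0.71 in BXD34, with the next at 0.01. Psme1, the interferon-inducible activator subunit, was at 0.75 in BXD40, with the next at 0.09. Psmg2, a chaperone of the alpha ring, was at 0.54 in BXD42, with the next at -0.07. Psmc3ip, which is not a subunit, was at -2.30 in BXD38, with the next at -0.54. These 5 values come from 5 different arrays.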

How the results depend on the processing

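With a tested log2 change of 0.2, 11 genes were higher and 1 lower (10.5% and 10.3% of all features), and in BXD33-42 alone, with fewer strains, 10 were higher and 1 lower (9.02% and 6.15%). In BXD1-32 alone 5 were lower (27.8%), as with the place removed and the proteasome probes left out of the place means (5), against 6 with them included. With the place removed the immunoproteasome median turned to -0.0045 (0.010 with the proteasome probes left out), and the median correlation of pairs was 0.032, or 0.035 with the proteasome probes left out. Means that turned sign in BXD33-42 alone were Psma1 (0.28), Psma3 (0.11), Psma8 (-0.045), Psmd2 (-0.25), Psmd3 (-0.28), Psmd5 (0.13), Psme1 (-0.0023) and Psmc3ip (-0.43). With the place removed, and then with the proteasome probes left out of the place means, they were Psma2 (-0.015 and -0.015), Psma6 (-0.13 and -0.10), Psmb1 (-0.042 and -0.042), Psmb2 (-0.0047 and -0.0016), Psmb4 (-0.091 and -0.091), Psmb10 (-0.030 and -5.8e-05), Psmd1 (0.095 and 0.088) and Psmd5 (0.21 and 0.21). Near 0, Psmb1 turned with array weights (-0.0025) and in BXD1-32 alone (-0.0075). Psmd6 turned with array weights (-0.028), in BXD1-32 alone (-0.20), with median centring (-0.011), without BXD38 (-0.062) and without BXD15 and BXD38 (-0.053), and Psmc3ip with median centring (-0.0022). The cause was not tested. Of the 32 calls, robust eBayes, array weights and median centring kept all 32 and leaving out BXD15 and BXD38 kept 31. The low-spread filter took 4 called genes out of the test and kept the other 28. No paired analysis was possible because the 2 groups hold different strains and the labels give no pairing between them.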
